A study of Mus musculus with 20 samples.

Results

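A set of 6 genes that carry the last steps of glucose production and the movement of glucose and fructose out of and into kidney tubule cells was followed in kidney RNA of Hyp and normal mice on low phosphate or control diet: Pck1, Fbp1, G6pc, Slc37a4, Slc2a2 and Slc2a5. They were chosen by gene name, taking all probe sets that the platform annotation assigns to that gene alone, which gave 6 probe sets, 1 per gene, of 12422 on the array once control probe sets were set aside. The choice was made with earlier results of these data known, so shares of the 6 that pass are not an independent test of the set. The probe sets were 160481_at (Pck1), 96918_at (Fbp1), 103333_at (G6pc), 97430_at (Slc37a4), 103357_at (Slc2a2) and 160839_at (Slc2a5), and the array names 8251 genes in all. All 6 lay above the filter on dim probe sets. The Hyp mouse is the mouse model of X-linked hypophosphatemia, which lacks a working Phex gene and wastes phosphate through the kidney. There were 4 groups of 5 arrays each: Hyp mice fed low phosphate, Hyp mice fed control diet, normal mice fed low phosphate and normal mice fed control diet. All mice were of the C57BL/6J strain, and RNA from 3 mice was pooled for each array. Of the 20 arrays, 12 were from males and 8 from females, and 12 followed 5 days and 8 followed 3 days on the diets. The labels name the tissue as kidney and the RNA as total RNA. Ages and the phosphate content of the diets are not given in the sources used here. In whole-tissue RNA, fewer cells of a type and less RNA per cell cannot be told apart.

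The kidney shares with the liver the ability to make new glucose, and within the kidney the cells of the proximal tubule do so, using lactate, glutamine and glycerol. Pck1, cytosolic phosphoenolpyruvate carboxykinase, turns oxaloacetate into phosphoenolpyruvate near the start of the route. Fbp1, fructose-1,6-bisphosphatase, removes a phosphate further along. Slc37a4 carries glucose-6-phosphate into the endoplasmic reticulum, where G6pc, the catalytic subunit of glucose-6-phosphatase, frees glucose from it. Slc2a2 (GLUT2) lets glucose leave across the basolateral membrane, both newly made glucose and glucose reabsorbed from the filtrate. Slc2a5 (GLUT5) transports fructose, in the small intestine and in the proximal tubule. The reactions of Fbp1 and G6pc each free a phosphate ion.

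The stretches just upstream of 3 of these genes are shown because Pck1, G6pc and Slc2a2 are the members that moved, or whose groups separated, most clearly with diet in Hyp mice. Each is the 250 bases before the annotated RefSeq start on build GRCm38.p6, read 5′ to 3′ on the gene's own strand, and capitals mark motifs found by a search. Pck1 is chr2:173152823-173153072, G6pc is chr11:101367466-101367715 and Slc2a2 is chr3:28697653-28697902, all on the plus strand.
Pck1: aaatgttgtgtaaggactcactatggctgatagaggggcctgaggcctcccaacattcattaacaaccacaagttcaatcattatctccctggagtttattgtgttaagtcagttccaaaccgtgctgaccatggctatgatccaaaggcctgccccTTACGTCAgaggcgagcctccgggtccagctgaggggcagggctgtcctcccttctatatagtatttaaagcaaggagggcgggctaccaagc
G6pc: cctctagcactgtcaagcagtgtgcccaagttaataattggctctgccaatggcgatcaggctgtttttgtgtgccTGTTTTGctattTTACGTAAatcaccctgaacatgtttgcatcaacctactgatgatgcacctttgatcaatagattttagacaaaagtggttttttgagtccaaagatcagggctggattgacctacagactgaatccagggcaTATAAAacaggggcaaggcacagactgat
Slc2a2: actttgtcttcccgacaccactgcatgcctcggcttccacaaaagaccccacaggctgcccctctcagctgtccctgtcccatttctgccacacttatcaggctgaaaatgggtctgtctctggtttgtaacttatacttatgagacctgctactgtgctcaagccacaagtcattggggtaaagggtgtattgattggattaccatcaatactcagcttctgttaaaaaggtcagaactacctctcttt

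The search covered both strands for the cAMP response element as a palindrome (TGACGTCA) and in the form TTACGTCA, a FOXO site (TGTTTAC), the insulin response sequence core (TGTTTTG), an HNF4 site (CAAAGTCCA), a C/EBP palindrome (TTGCGCAA), the palindrome TTACGTAA bound by PAR bZIP and C/EBP factors, an E-box (CACGTG) and a TATA box (TATAAA). No match overlapped another. The Pck1 window held TTACGTCA, starting 93 bases before the start, a form that 0.447% of 32851 mouse promoter windows of the same length hold. The G6pc window held TGTTTTG 174 bases before the start (5.56% of windows), TTACGTAA 162 bases before it (0.113% of windows) and TATAAA 29 bases before it (12.4% of windows). None of these motifs was found in the Slc2a2 window. The matches are descriptions of sequence, and binding was not measured in these samples.

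The deposited intensities had the same trimmed mean on every array (500.254 to 500.309), with array medians from 185.75 to 228.15. Arrays were numbered in the titles, and runs of 4 or 2 consecutive numbers shared 1 sex and 1 duration, so diet can be read between arrays of the same run in 5 pairs per genotype. Genotype can be read so in 4 pairs per diet, because arrays 09 and 10 were both Hyp and arrays 19 and 20 both normal. Arrays 05 to 08, the females at 5 days, stood apart: their median rank correlation with the other arrays was 0.895 to 0.934, against 0.943 to 0.969 for the rest, and their ratio of 3′ to 5′ actin signal was 1.74 to 2.61, against 1.22 to 1.98. Proximal tubule markers were bright in all groups (5 of 8 listed measured), with sums of 48348 to 60955 in Hyp mice on low phosphate, 50559 to 60267 in Hyp mice on control diet, 57241 to 64499 in normal mice on low phosphate and 52438 to 58041 in normal mice on control diet.

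Array 10, a pool of Hyp males after 5 days of low phosphate, had high signal for liver transcripts. Of 7 hepatocyte markers listed, 6 were measured (Alb, Ahsg, Fga, Fgb, Serpinc1 and Apoh), and all 6 were highest on array 10. Their summed intensity there was 15985.5, against 608.6 to 1909.7 on the other 19 arrays. Alb, serum albumin, reached 13096.7 on array 10 and at most 1226 on the others. By group the sum ran from 704 to 15985.5 in Hyp mice on low phosphate, 727.5 to 991 in Hyp mice on control diet, 608.6 to 1720.4 in normal mice on low phosphate and 804.4 to 1543.7 in normal mice on control diet. Liver expresses Pck1, Fbp1, G6pc, Slc37a4 and Slc2a2 as well, so values that use array 10 are also given without it. On that array Fbp1 and G6pc were at the highest value of their group, and the other 4 genes lay within the range of the other 4 arrays of the group. The part of liver RNA in these results was not tested beyond the values without array 10.

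**Figure D1:**
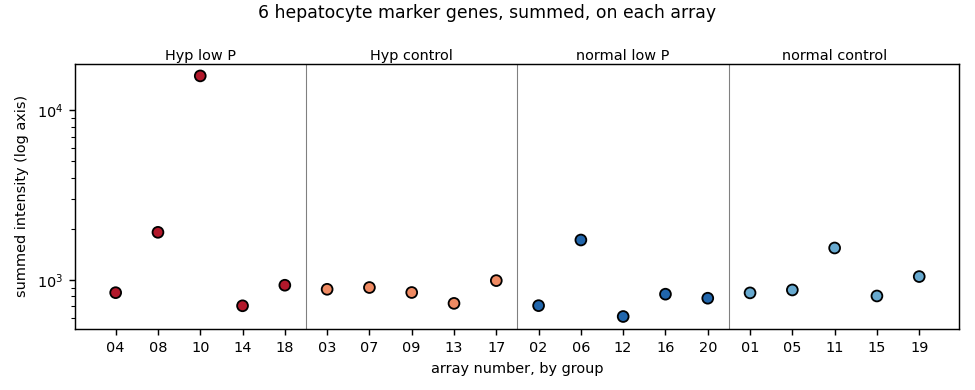
Summed intensity of 6 hepatocyte marker genes (vertical axis, log scale) on each of the 20 arrays, ordered by group along the horizontal axis. Array 10 of the Hyp low phosphate group stands at 15985.5, and the other 19 arrays lie between 608.6 and 1909.7.

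Low phosphate diet went with lower Pck1 and higher Slc2a2 in Hyp mice. In that comparison 2 of the 6 genes passed the test (limma, Benjamini-Hochberg adjusted over 8695 probe sets, threshold 0.05), where 0.15% of all probe sets passed. Differences are fitted on log2 of intensity plus an offset of 38, with sex and days taken into account. In normal mice none of the 6 passed, where 0.184% of all probe sets did and 744 had an unadjusted p under 0.05, 3 of the 6 genes among them (Pck1, Slc2a2 and Slc2a5). Between genotypes on control diet 3 of 6 passed (0.253% of all probe sets): G6pc was higher in Hyp, and Slc37a4 and Slc2a2 were lower. On low phosphate diet 1 of 6 passed (0.357% of all probe sets), and this was Slc37a4, with less signal in Hyp. No member passed the test of whether the diet difference depended on genotype, which 0.046% of probe sets passed, and 2 of the 6 (G6pc and Slc2a2) had an unadjusted p under 0.05. Without arrays 05 to 08 none of these 6 calls held, with differences in the same direction (adjusted p 0.13 for both genes with diet in Hyp mice, 0.12 for the 3 between genotypes on control diet and 0.18 for Slc37a4 on low phosphate). The comparisons share groups of arrays, so their results are not independent of each other.

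**Figure D2:**
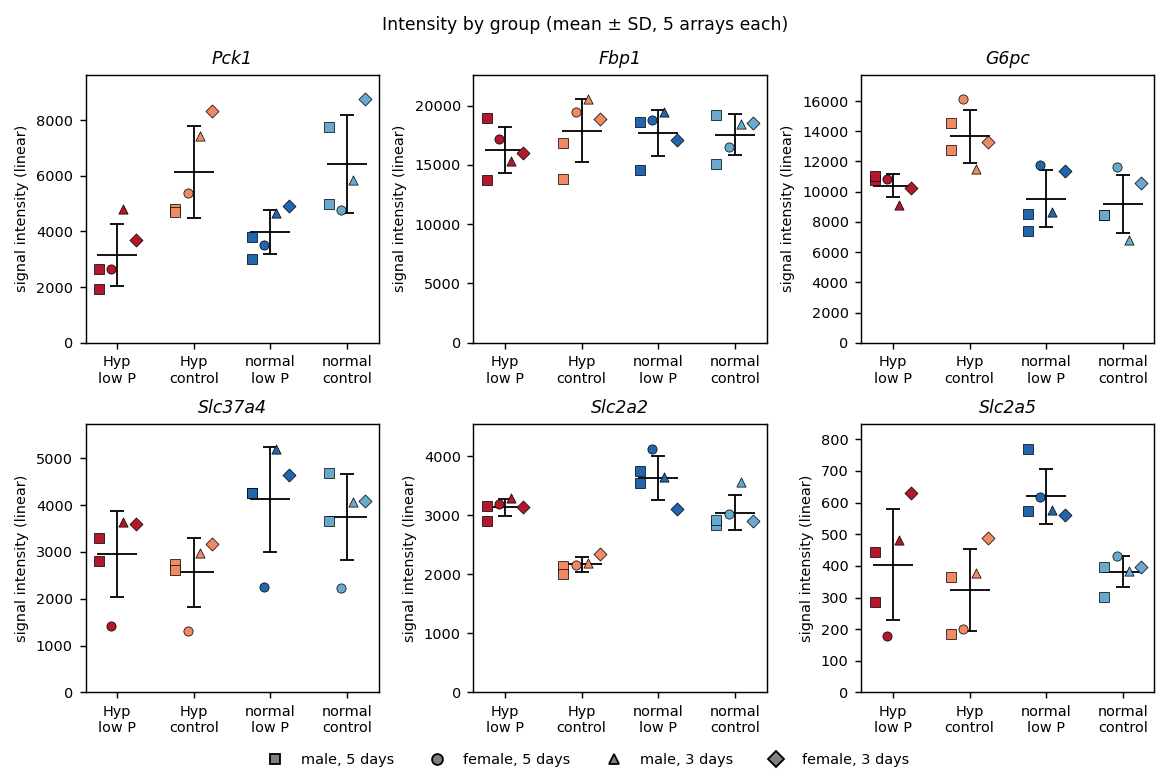
Intensity (linear scale, arbitrary units) of the 6 genes on every array, 1 panel per gene, with groups in the order Hyp low phosphate, Hyp control, normal low phosphate and normal control. Points are arrays, shaped by sex and days, and bars are means ± SD of 5 arrays. For Slc2a2 the Hyp low phosphate arrays (2897 to 3286) lie wholly above the Hyp control arrays (2010 to 2351).

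Pck1 fell on low phosphate diet in Hyp mice, and in normal mice it was lower in each pair without passing the test. In Hyp mice on low phosphate its intensity was 1938.5, 2639, 2659, 4807.5 and 3698 on arrays 04, 08, 10, 14 and 18. In Hyp mice on control diet it was 4801, 5381, 4694, 7415 and 8345 on arrays 03, 07, 09, 13 and 17. Of the 5 low phosphate arrays 4 lay below every control array, and array 14, a male pool at 3 days, lay among the control values. The means were 3148 ± 1120.0 on low phosphate and 6127 ± 1654 on control diet (SD, n = 5 each), and within runs the low phosphate array had 0.404 to 0.648 times the signal of its control partner, lower in 5 of 5 pairs. The fitted log2 difference was -0.98 ± 0.16 (SE; adjusted p = 0.015), and Pck1 ranked 7 of 8695 probe sets by p. Without array 10 it was -0.999 (adjusted p = 0.039). The call was lost without array 04, 07, 13, 17 or 18 (adjusted p up to 0.076), and the difference then stayed between -1.11 and -0.87. Beside this, a sum of 3 distal convoluted tubule markers was lower in the same comparison. It was 8853 to 10960.4 in Hyp mice on low phosphate and 11244 to 14167 in Hyp mice on control diet. Of the 3 markers only Calb1 passed (-1.18, adjusted p = 1.2e-05), and Slc12a3 (-0.16) and Pvalb (0.10) did not. The part of this sum in the Pck1 result was not tested.

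In normal mice on low phosphate Pck1 had 3010 and 3501 on arrays 02 and 06, 4658 and 4908.5 on arrays 12 and 16, and 3797 on array 20. In normal mice on control diet it had 4995 and 4786 on arrays 01 and 05, 5842 and 8763 on arrays 11 and 15, and 7755 on array 19. Array 16 of the low phosphate group overlapped the control range. The means were 3975 ± 794 on low phosphate and 6428 ± 1754 on control diet (SD, n = 5 each), and the low phosphate array was lower in 5 of 5 pairs, with ratios of 0.490 to 0.797. The log2 difference was -0.67 ± 0.16 (SE) and missed the threshold (adjusted p = 0.12), ranking 47 of 8695. With the run of arrays as a block it passed (-0.67, adjusted p = 0.027), as it did with array weights (-0.64, adjusted p = 0.036). The difference between the genotypes in the diet effect was -0.31 ± 0.23 (SE; adjusted p = 1.00), with a 95% interval from -0.79 to 0.17. Averaged over genotypes, Pck1 fell by 0.83 on the log2 scale (adjusted p = 0.0015), where 2 of the 6 genes and 0.472% of all probe sets passed, and this call held without any single array.

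Genotype differences in Pck1 did not pass on either diet. On control diet Hyp and normal mice differed by -0.07 ± 0.16 (SE), with a 95% interval from -0.41 to 0.27. On low phosphate diet the difference was -0.38 ± 0.16 (SE; adjusted p = 0.48; -0.40 without array 10), with a 95% interval from -0.72 to -0.04 before any adjustment over probe sets, and Hyp was lower in 3 of 4 pairs within runs. In order of mean level the groups stood as normal control, Hyp control, normal low phosphate and Hyp low phosphate. The ranges of neighbours on the same diet overlapped.

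No difference in Fbp1 passed between diets or genotypes. Its intensity ran from 13721 to 18933 in Hyp mice on low phosphate (median 15972), 13789 to 20556 in Hyp mice on control diet (median 18852), 14559 to 19424 in normal mice on low phosphate (median 18639) and 15048 to 19164 in normal mice on control diet (median 18429). The 4 ranges overlapped throughout. The log2 difference with diet was -0.13 in Hyp mice (95% interval -0.39 to 0.12; -0.22 without array 10, adjusted p = 0.88) and 0.01 in normal mice (-0.24 to 0.27). Between genotypes it was 0.02 on control diet (-0.23 to 0.27) and -0.13 on low phosphate diet (-0.38 to 0.13; -0.21 without array 10, adjusted p = 0.72). None passed, and the intervals with all arrays leave room for changes of up to 0.39 in size. The signs of the differences that lie near 0 changed with the processing.

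G6pc was higher in Hyp than in normal mice on control diet. Hyp mice on control diet had 12754, 16141, 14569, 11526 and 13305 on arrays 03, 07, 09, 13 and 17. Normal mice on control diet had 8454, 11619, 6781, 10600.2 and 8437.5 on arrays 01, 05, 11, 15 and 19. The ranges touched only where the lowest Hyp pool, a male pool, lay just below the highest normal pool, a female one. Within each sex the groups did not overlap: Hyp males had 11526 to 14569 against 6781 to 8454 in normal males, and Hyp females had 13305 and 16141 against 10600.2 and 11619 in normal females. Hyp pools averaged 13659 ± 1767 and normal pools 9178 ± 1924 (SD, n = 5 each), with a log2 difference of 0.59 ± 0.11 (SE; adjusted p = 0.030), higher in 4 of 4 pairs within runs at ratios of 1.26 to 1.70. The call was lost when any 1 of 10 arrays was left out, all 5 of each compared group (adjusted p up to 0.13, difference 0.53 to 0.63), and with the run as a block (0.51, adjusted p = 0.057).

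On low phosphate diet the G6pc values of the genotypes overlapped. Hyp mice on low phosphate had 10766, 10843, 11009, 9145 and 10212 on arrays 04, 08, 10, 14 and 18, against 8536.5, 11770.5, 8680.5, 11349 and 7395 in normal mice on low phosphate on arrays 02, 06, 12, 16 and 20. The Hyp values lay inside the normal range, and the difference was 0.14 ± 0.11 (SE; adjusted p = 0.72), or 0.10 without array 10. Within a sex the genotypes did not overlap, but in opposite directions. Hyp males had 9145 to 11009, above the 7395 to 8680.5 of normal males. Hyp females had 10212 and 10843, below the 11349 and 11770.5 of normal females. This difference between the sexes was not tested. In Hyp mice the low phosphate arrays (9145 to 11009) lay wholly below the control arrays (11526 to 16141), lower in 5 of 5 pairs at 0.672 to 0.844 times the control signal. That difference was -0.39 ± 0.11 (SE) and did not pass over all probe sets (adjusted p = 0.67), ranking 39 of 8695. It was -0.43 without array 10 (adjusted p = 0.67) and -0.36 without arrays 08 and 10. In normal mice the diet difference was 0.06 ± 0.11 (SE), higher in 4 of 5 pairs. The difference between these diet effects was -0.45 ± 0.16 (SE), which ranked 71 of 8695 and did not pass (adjusted p = 1.00), and was -0.49 without array 10. Averaged over diets G6pc was higher in Hyp (0.36, adjusted p = 0.029), where 3 of the 6 genes and 1.28% of all probe sets passed, and without array 10 this was 0.34 (adjusted p = 0.063). The averaged call was also lost without array 01, 02, 04, 07, 09, 11, 13, 14 or 19 (adjusted p up to 0.068).

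Slc37a4, the transporter that supplies G6pc with its substrate, was lower in Hyp mice on both diets. On control diet this was opposite in direction to G6pc. On low phosphate diet Hyp mice had 3288, 1418, 2804.5, 3630.1 and 3605 on arrays 04, 08, 10, 14 and 18, and normal mice had 4258, 2253, 5206, 4646 and 4253 on arrays 02, 06, 12, 16 and 20. On control diet Hyp mice had 2735.5, 1319.7, 2611, 2988 and 3179 on arrays 03, 07, 09, 13 and 17, and normal mice had 3651, 2237, 4067, 4083 and 4689.5 on arrays 01, 05, 11, 15 and 19. In all 4 groups the lowest array was the one from females at 5 days, and without those arrays the Hyp and normal values did not overlap on either diet. The log2 difference on control diet was -0.56 ± 0.10 (SE; adjusted p = 0.025) and on low phosphate -0.50 ± 0.10 (SE; adjusted p = 0.031). Hyp was lower in 4 of 4 pairs on each diet, at 0.590 to 0.779 times the normal signal on control diet and 0.629 to 0.776 on low phosphate.

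Averaged over diets the Slc37a4 difference was -0.53 ± 0.07 (SE; adjusted p = 0.00043), which ranked 14 of 8695, and it passed without any single array, without array 10 (-0.51, adjusted p = 0.0014) and without arrays 05 to 08 (-0.49, adjusted p = 0.0070). The separate calls were less steady. Without arrays 05 to 08 neither passed (-0.51, adjusted p = 0.12 on control diet; -0.46, adjusted p = 0.18 on low phosphate). With the run as a block the control diet call held (-0.51, adjusted p = 0.046) and the low phosphate one was lost (-0.45, adjusted p = 0.057). On low phosphate diet the call was lost for 11 arrays left out singly, namely 02, 04, 06, 08, 10, 12, 13, 14, 16, 18 and 20 (adjusted p up to 0.13), with -0.46 and adjusted p = 0.105 without array 10. On control diet it was lost for 7, namely 03, 05, 07, 09, 13, 17 and 19 (adjusted p up to 0.088). The sum of proximal tubule markers had a median of 51472 in Hyp and 60257 in normal mice on low phosphate, with overlapping ranges. The sum of 3 distal convoluted tubule markers did not overlap there, at 8853 to 10960.4 in Hyp and 10999 to 12520.0 in normal mice. Of these markers only Calb1 passed between genotypes on low phosphate (-1.28, adjusted p = 2.5e-06). Slc12a3 went the other way (0.27) and Pvalb was -0.06, and neither passed. The part of either sum in the Slc37a4 result was not tested. Diet differences in Slc37a4 did not pass (0.18 in Hyp mice, 0.22 without array 10, and 0.13 in normal mice), though the low phosphate array was higher in 5 of 5 Hyp pairs and 4 of 5 normal pairs.

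Slc2a2, the basolateral glucose transporter, was lowest in Hyp mice on control diet and was higher on low phosphate diet. Hyp mice on low phosphate had 2897, 3183, 3161, 3286 and 3142 on arrays 04, 08, 10, 14 and 18, against 2140.1, 2160.1, 2010.0, 2189 and 2351 in Hyp mice on control diet on arrays 03, 07, 09, 13 and 17. Pools varied little within these groups, with means of 3134 ± 143 on low phosphate and 2170.0 ± 122 on control diet (SD, n = 5 each), and the groups did not overlap. The log2 difference was 0.52 ± 0.09 (SE; adjusted p = 0.025), rank 8 of 8695, with ratios of 1.34 to 1.57 in 5 of 5 pairs. Without array 10 it was 0.51 (adjusted p = 0.076), and the call was also lost without array 04, 07, 08, 09, 13, 14 or 18 (adjusted p up to 0.12), while the difference stayed between 0.50 and 0.58. The distal convoluted tubule sums given for Pck1 belong to this comparison too, and their part was not tested.

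In normal mice Slc2a2 had 3756.5, 4128, 3644, 3098 and 3539 on low phosphate on arrays 02, 06, 12, 16 and 20, and 2836, 3016, 3558, 2898 and 2921 on control diet on arrays 01, 05, 11, 15 and 19. These ranges overlapped. The low phosphate array was higher in 5 of 5 pairs, by 0.25 ± 0.09 (SE) on the log2 scale, which did not pass (adjusted p = 0.39). The diet effects of the genotypes differed by 0.27 ± 0.13 (SE; adjusted p = 1.00). Averaged over genotypes Slc2a2 was higher on low phosphate (0.39, adjusted p = 0.0074), a call that held without any single array and was 0.38 without array 10 (adjusted p = 0.016). Leaving out arrays 05 to 08 together, the females at 5 days, ended this averaged call.

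Between genotypes on control diet the Slc2a2 arrays did not overlap either, at 2010.0 to 2351 in Hyp and 2836 to 3558 in normal mice. The log2 difference was -0.48 ± 0.09 (SE; adjusted p = 0.028), with Hyp lower in 4 of 4 pairs at 0.615 to 0.811 times the normal signal. That call was lost without array 01, 03, 05, 07, 09, 11, 13, 15 or 19 (adjusted p up to 0.13, difference -0.53 to -0.43). On low phosphate diet the difference was -0.21 ± 0.09 (SE; adjusted p = 0.49; -0.22 without array 10), with overlapping ranges of 2897 to 3286 in Hyp and 3098 to 4128 in normal mice. Averaged over diets it was -0.34 (adjusted p = 0.012), and -0.35 without array 10 (adjusted p = 0.020). Leaving out arrays 05 to 08 together ended this averaged call too. By mean level normal low phosphate came first (3633 ± 373), then Hyp low phosphate (3134 ± 143), normal control (3046 ± 293) and Hyp control (2170.0 ± 122), and the ranges of Hyp low phosphate and normal control overlapped.

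**Figure D3:**
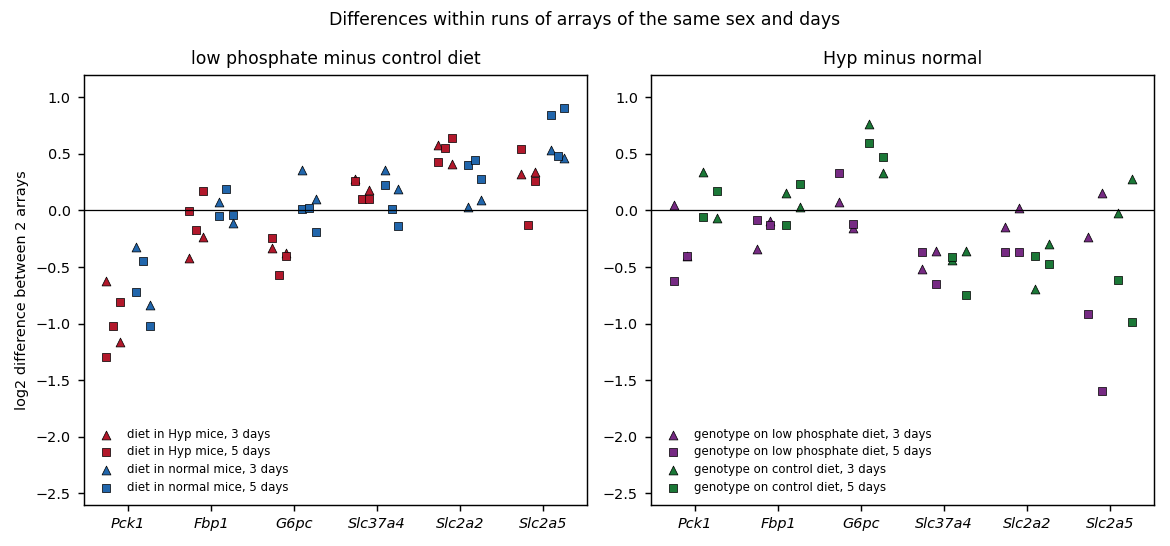
Log2 differences between 2 arrays of the same run, sex and days, for diet (left panel, 5 pairs per genotype) and for genotype (right panel, 4 pairs on each diet), with marker shape for days. All 10 Pck1 diet points lie below 0 and all 10 Slc2a2 diet points above it, and all 8 Slc37a4 genotype points lie below 0.

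Slc2a5, the fructose transporter, had intensities of 179 to 770.3, near enough to the offset of 38 for its log2 differences to understate its fold changes. In normal mice on low phosphate it had 573.2, 616.4, 575.4, 560.9 and 770.3 on arrays 02, 06, 12, 16 and 20, against 302, 432, 385.2, 396.5 and 395 on control diet on arrays 01, 05, 11, 15 and 19. The groups did not overlap, and the low phosphate array had 1.41 to 1.95 times the signal of its partner in 5 of 5 pairs. The log2 difference was 0.64 ± 0.24 (SE), with a 95% interval from 0.15 to 1.14, and did not pass over all probe sets (adjusted p = 0.39). In Hyp mice the diet difference was 0.27 ± 0.24 (SE; adjusted p = 1.00), or 0.19 without array 10, higher in 4 of 5 pairs, with 179 to 628.8 on low phosphate and 183.9 to 487.9 on control diet. The diet effects of the genotypes differed by -0.38 ± 0.33 (SE), with a 95% interval from -1.08 to 0.33.

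The Slc2a5 genotype difference was large at 5 days and near 0 at 3 days. On low phosphate at 5 days Hyp pools had 285.8, 179 and 443.1, all below the 573.2, 616.4 and 770.3 of normal pools. At 3 days Hyp pools had 483.2 and 628.8, around the 575.4 and 560.9 of normal pools. On control diet at 5 days Hyp pools had 183.9, 199.7 and 364.3, against 302, 432 and 395 in normal pools, and at 3 days 378.8 and 487.9, against 385.2 and 396.5. The mean difference within runs was -1.25 at 5 days and -0.04 at 3 days on low phosphate, and -0.80 at 5 days and 0.13 at 3 days on control diet, each a mean of 2 pairs. The test of genotype by days gave -0.87 ± 0.29 (SE), which ranked 71 of 8695 and did not pass (adjusted p = 0.92). Without arrays 05 to 08 it was -0.64. No probe set passed that test with limma (0% called, 424 with an unadjusted p under 0.05). Over both durations the genotype difference was -0.67 ± 0.24 on low phosphate (adjusted p = 0.38; -0.75 without array 10) and -0.29 ± 0.24 on control diet (adjusted p = 0.75), SE in both cases.

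**Figure D4:**
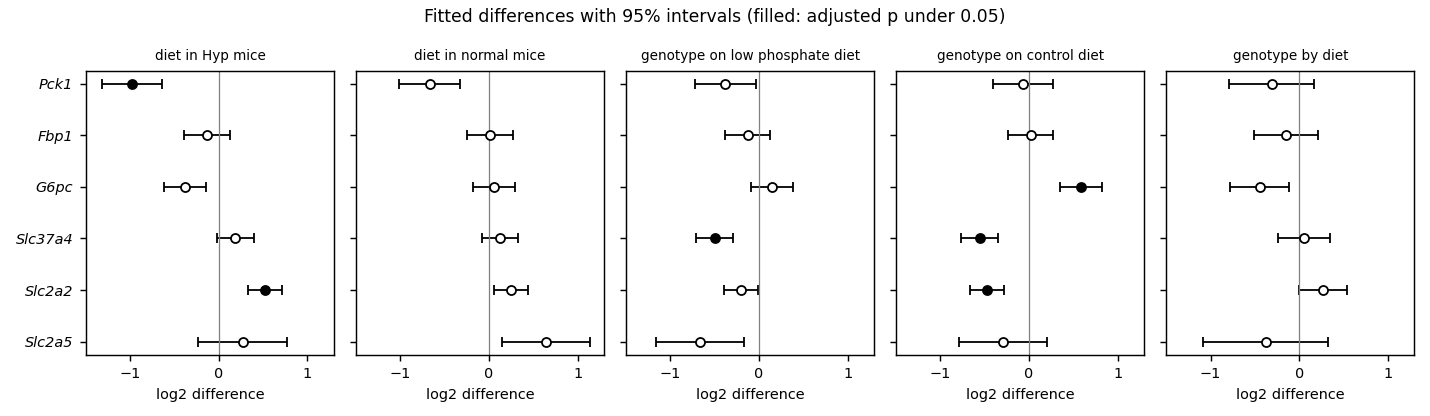
Fitted log2 differences of the 6 genes with 95% intervals (horizontal axis), 1 panel per comparison, with filled points where the adjusted p was under 0.05. Pck1 and Slc2a2 are filled for diet in Hyp mice, G6pc, Slc37a4 and Slc2a2 for genotype on control diet, and Slc37a4 for genotype on low phosphate diet.

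Days on the diets were compared across all groups, 5 days against 3. Of the 6 genes 2 were lower at 5 days, where 40.9% of all probe sets differed, so this share lies close to the background. Pck1 averaged 4163 ± 1584 at 5 days (SD, n = 12) and 6055 ± 1884 at 3 days (SD, n = 8), a log2 difference of -0.57 ± 0.12 (SE; adjusted p = 0.0016). Slc37a4 averaged 2960 ± 1096 at 5 days and 3926 ± 740 at 3 days (-0.64 ± 0.07 SE, adjusted p = 3.4e-05). Without arrays 05 to 08 males at 5 days were set against both sexes at 3 days, giving -0.16 (adjusted p = 0.18). Each run of arrays held 1 sex and 1 duration, so these differences and the runs cannot be told apart. The diet difference did not depend detectably on days for any of the 6 genes, with 0% of all probe sets past that test and 276 at an unadjusted p under 0.05. For Pck1 it was -1.04 at 5 days and -0.89 at 3 days in Hyp mice, and -0.73 at 5 days and -0.58 at 3 days in normal mice, as means within runs.

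Between females and males 2 of the 6 genes differed, where 16.6% of all probe sets did. Each run of arrays held 1 sex, so sex and the runs cannot be told apart here either. G6pc was higher in females, at 11980 ± 1926 (SD, n = 8) against 9838 ± 2310 in males (SD, n = 12), a log2 difference of 0.33 ± 0.08 (SE; adjusted p = 0.013). Without arrays 05 to 08 no females at 5 days were left, so females at 3 days were set against males at both durations. That mixed contrast gave 0.26 (adjusted p = 0.28). At 3 days alone females had 10600.2, 11349, 13305 and 10212 (normal control, normal low phosphate, Hyp control, Hyp low phosphate). Males had 6781, 8680.5, 11526 and 9145 in the same order, lower in each group. Slc37a4 was lower in females, at 2842 ± 1228 against 3682 ± 831 in males (-0.49 ± 0.07 SE, adjusted p = 0.00045). The same mixed contrast without arrays 05 to 08 gave 0.06 for Slc37a4 (adjusted p = 0.77). At 3 days alone females had 4083, 4646, 3179 and 3605. Males had 4067, 5206, 2988 and 3630 in the same order, so the difference lay mainly in the female arrays at 5 days.

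Other genes around this route showed few differences with diet or genotype. Lists of further gluconeogenic and glycolytic enzymes, suppliers of precursors, hexose transporters, fructose metabolism and regulators held 94 genes, of which 66 were measured and 59 tested. By list, the median diet difference in Hyp mice was -0.04 over 11 further enzymes of the route. It was 0.12 over 9 enzymes listed for glycolysis, the lactate dehydrogenase genes Ldha and Ldhb among them. The medians were -0.01 over 10 suppliers of precursors, 0.19 over 5 hexose transporters and 0.04 over 23 regulators. Between genotypes on control diet the medians of the same lists were -0.12, -0.17, 0.02, -0.15 and 0.01. The list for fructose metabolism had only 1 tested gene, Aldh1a7, so it says little about that route. Aldh1a7 had -0.34 with diet in Hyp mice and 0.51 between genotypes on control diet, and neither passed. In Hyp mice none of the 59 passed with diet, and 36 were positive and 23 negative, with a median of 0.03 against 0.0046 for all probe sets and 4 at an unadjusted p under 0.05. None passed between genotypes on control diet (27 positive, 32 negative, median -0.05 against 0.02 for all, 8 at an unadjusted p under 0.05). None passed on low phosphate diet either (27 positive, 32 negative, median -0.01 against 0.02 for all, 4 at an unadjusted p under 0.05). In the test of genotype by diet none passed, and 0 had an unadjusted p under 0.05. In normal mice 1 of 59 passed with diet, where 0.184% of all probe sets did: Glud1, glutamate dehydrogenase, which feeds carbon from glutamine into the route and releases ammonia. It averaged 2146 ± 413 on low phosphate and 3332 ± 565 on control diet (SD, n = 5 each), with ranges of 1509 to 2525 on low phosphate and 2573 to 4116 on control diet that did not overlap. The log2 difference was -0.63 ± 0.11 (SE; adjusted p = 0.020). In Hyp mice Glud1 averaged 2141 ± 551 on low phosphate and 2797 ± 794 on control diet (-0.37, adjusted p = 0.67), and averaged over genotypes the difference was -0.50 (adjusted p = 0.0044).

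Averaged over diets 1 of 59 differed between genotypes, a share close to the 1.28% of all probe sets. This was Pth1r, the parathyroid hormone receptor. It was lower in Hyp mice, at 3413 ± 1159 on low phosphate and 3274 ± 941 on control diet, against 5345 ± 2023 on low phosphate and 4956 ± 1106 on control diet in normal mice (SD, n = 5 each). The log2 difference was -0.61 ± 0.12 (SE; adjusted p = 0.022). With days, 9 of the 59 were higher and 25 lower at 5 days, where 40.9% of all probe sets differed, and 4 were higher and 9 lower in females, where 16.6% did.

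The probe sets whose levels most resembled each member were found by Pearson correlation over the 20 arrays, after the mean of each combination of sex and days was taken out. All arrays share the 4 groups, so these values can in part describe the same diet and genotype differences again. For Pck1 they were Slc22a6, the organic anion transporter OAT1 of the proximal tubule (r = 0.82), 4931406C07Rik (0.81) and Tpd52 (0.80). With group means taken out too, the Slc22a6 value was 0.12 and the Tpd52 value 0.65. For Slc37a4 they were Dnase1, a secreted deoxyribonuclease (0.93), Timm17a (0.90) and Ech1 (0.88), and for Slc2a2 they were Bmp6, a bone morphogenetic protein (0.87), Dnase1 (0.82) and Pmm1 (0.81). The Dnase1 values were 0.23 with Slc37a4 and 0.093 with Slc2a2 once group means were taken out, so the likeness lay mainly between groups. Dnase1 averaged 1697 ± 173 in Hyp mice on low phosphate, 964 ± 307 in Hyp mice on control diet, 6780 ± 1740 in normal mice on low phosphate and 4124 ± 1320 in normal mice on control diet (SD, n = 5 each).

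For G6pc the nearest were Usp15 (0.85), Ptprk (0.84) and Prkd1 (0.82). For Fbp1 they were Cript (0.88), Dstn (0.87) and Psmd12 (0.85), and for Slc2a5 Ctdsp2 (0.83), Trim25 (0.83) and Mtarc2 (0.81). With group means taken out too, these were in the same order 0.66, 0.65 and 0.76 for G6pc. They were 0.89, 0.91 and 0.85 for Fbp1, and 0.68, 0.71 and 0.71 for Slc2a5. Among the members themselves, with group means left in, G6pc ran against Slc2a2 (r = -0.82) and Slc37a4 (-0.71), and Slc37a4 ran with Slc2a2 (0.74). Pck1 and Fbp1 had 0.44, and Fbp1 and G6pc 0.01.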

How the data were processed

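Kidney RNA pools of 3 mice were measured on 20 oligonucleotide arrays, 5 in each of 4 groups taken from the sample titles. The deposited table held 1 linear signal intensity per probe set, which the authors had scaled to an equal trimmed mean, as the values show. The software and settings are not given in the sources used here, and the intensities carry no background estimate, so precision depends on how many arrays there are. The p-values reflect how pools, not single mice, vary. Of 12488 probe sets 66 controls were set aside. The annotation gave 1 gene to 10833 of the rest, several to 396 and none to 1193, and 10817 matched a RefSeq gene number, changing 0 symbols. No 2 arrays were identical.

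The log2 of intensity plus 38 (the 20th percentile) was modelled over the 20 arrays together (limma 3.58.1, R 4.3.3), with terms for the 4 groups and the 4 combinations of sex and days (13 residual degrees of freedom). Comparisons by days used separate means for each group and duration (10 degrees). Probe sets under the 30th percentile of mean intensity were left out, which left 8695. In each of 11 comparisons the two-sided p-values received Benjamini-Hochberg adjustment, threshold 0.05. The fit was tested on simulated data. The 3 probe sets named as most like each gene were those with the highest Pearson correlation, and of the pathway lists the genes past the threshold were named. Sequences are from RefSeq, build GRCm38.p6. The members, gene lists and motifs were chosen with earlier results of these data known. Alternatives changed the offset, filter, normalization, model terms, block, array weights and the arrays used.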

Additional observations from a re-analysis of the deposited data

Results flagged for a closer look

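In groups of 5 arrays, a highest or lowest array was picked out where its gap to the nearest array took up most of the group's range (Dixon's test at the 95% level). Of 36 groups examined 4 held such an array, and chance picks out about 1 group in 20. Slc2a2 in normal mice on control diet was 3557.6 on array 11, a male pool at 3 days, against 2836 to 3016 on the other 4 arrays. Slc2a5 in normal mice on low phosphate was 770.3 on array 20, a male pool at 5 days, against 560.9 to 616.4 on the others. The hepatocyte marker sum was 15985.5 on array 10 of Hyp mice on low phosphate. It was 1720.4 on array 06 of normal mice on low phosphate.

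Of 84 contrasts between sexes, durations, genotypes or diets examined, 1 had every pair of one kind on the opposite side from every pair of the other. The G6pc genotype difference on low phosphate was -0.15 and -0.12 in the 2 female pairs and 0.07 and 0.33 in the 2 male pairs. The female mean minus the male mean was -0.339, and this difference was not tested.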

How the results depend on the processing

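Over 15 differences past the threshold and their 515 alternatives, 514 kept the direction and 364 kept the call. The exception in direction was Slc37a4 by sex, 0.065 without arrays 05 to 08. That contrast set females at 3 days against males at both durations. Signal over background is not known here, so dim values limit mainly Slc2a5. The number of members called changed as follows. With quantile normalization it was 1 for genotype on control diet. With the array run as a block it was 1 for diet in normal mice, 0 for genotype on low phosphate diet and 2 for genotype on control diet and averaged over diets, and with array weights 1 for diet in normal mice. Fitted on the compared groups only, it was 0 for diet in Hyp mice and for genotype on each diet. Without terms for sex and days it was 0 for those 3 and 1 for genotype averaged over diets. Without arrays 05 to 08 it was 0 for those 3 and 1 for each averaged comparison (Pck1 for diet, Slc37a4 for genotype). With no females at 5 days left, the sex and days comparisons mixed, and it was 0 for sex and 1 for days. Without arrays 09, 10, 19 and 20 it was 1 for diet in Hyp mice, 0 for genotype on each diet and 1 for genotype averaged over diets. Without arrays 08 and 10, an alternative added after the data were seen, it was 0 for diet in Hyp mice and for genotype on low phosphate diet. In males, females, 3 days or 5 days alone it was 0 for diet in Hyp mice, genotype on each diet and both averaged comparisons; for sex it was 1 at 5 days and 0 at 3 days, and for days 0 in males. These subsets have fewer arrays; the cause of the other changes was not tested. Leaving out 1 array gave 0 to 2 for diet in Hyp mice, 0 to 3 for genotype on control diet, 0 to 1 for genotype on low phosphate diet, 2 to 3 for genotype averaged over diets and for days, 2 to 2 for diet averaged and for sex, and 0 to 0 elsewhere.

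Differences near 0 changed sign. Fbp1 with diet in normal mice was -0.104 with quantile normalization, -0.016 with array weights, -0.032 without arrays 05 to 08, -0.0040 in males, -0.020 at 3 days and -0.036 to 0.073 with 1 array left out. Fbp1 by genotype on control diet was -0.033 without arrays 05 to 08, -0.052 in males, -0.027 at 5 days and -0.026 to 0.095 with 1 array left out. G6pc with diet in normal mice was -0.0020 with quantile normalization and -0.052 at 5 days. Pck1 by genotype on control diet was 0.030 with the run as a block, 0.017 with array weights, 0.096 without arrays 09, 10, 19 and 20, 0.049 in females, 0.136 at 3 days and -0.194 to 0.083 with 1 array left out. Slc2a5 by genotype at 3 days was 0.127 on control diet and 0.043 averaged. G6pc by genotype on low phosphate was -0.135 in females and -0.038 at 3 days. Slc37a4 by genotype and diet was -0.041 at 3 days and -0.0059 to 0.105 with 1 array left out. No paired analysis by replicate number was possible because the labels give no replicate numbers shared between groups.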
